A study of Mus musculus with 6 samples.

Results

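The molecular chaperones of the cytosol and of the endoplasmic reticulum (ER) were followed in 3 kinds of cultured mouse cells. Members were taken from the arrays by name alone. Most belong to the Hsp70, Hsp90, Hsp110, small heat shock, J protein, chaperonin Cct and protein disulfide isomerase families. Hspbp1 is of none of these, entered because its symbol begins Hspb, and is counted with the cytosolic members. A probe counted where its accession maps to a symbol beginning Dnaj, Hspa, Hspb, Hsph, Hsp90, Hspd, Hspe or Pdia. The genes Cct2 to Cct8, Calr, Canx and Hyou1 were taken as well. Relatives under other symbols, such as Cryab and P4hb, were not members. The rule gave 95 of 41006 probes, for 68 of 12323 named genes, and all 68 passed the filter on dim probes and were tested. By textbook location 13 genes were placed in the ER, 40 in the cytosol, 9 in mitochondria and 6 in another class. That class holds nuclear J proteins and the ER membrane J proteins Dnajc14, Dnajc16 and Dnajc18. The ER class has membrane proteins too, Canx and Dnajc1, so leaving those J proteins out of it was a choice. Hspa1a, Hspa1b, Hspd1, Cct3, Dnajb11 and Pdia6 had no member probe and are not analysed here.

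Multipotent adult progenitor cells (MAPC) are adherent cells grown from bone marrow. The clone used, whose label describes it as high in Oct4, was depleted of CD45-positive and Ter119-positive cells after 4 weeks, plated at 10 cells per well and carried past 80 population doublings in 5% oxygen. Its medium held 2% serum, epidermal and platelet-derived growth factors, leukemia inhibitory factor (LIF), a selenium, insulin and transferrin supplement, lipids and 2-mercaptoethanol. Embryonic stem cells (ESC) of C57BL/6 were kept on irradiated embryonic fibroblasts with 15% serum, LIF and 2-mercaptoethanol, and were replated off the feeders ahead of RNA collection. Neurospheres (NS) were floating cultures of neuroepithelial cells from forebrains of C57BL/6 embryos of E11.5, expanded with fibroblast and epidermal growth factors. Each kind had 2 arrays, described as biological replicates, and both MAPC arrays came from 1 clone, so p-values that involve MAPC do not cover the spread between clones. Culture and cell type differed together and cannot be told apart.

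The ER chaperones fold proteins of the secretory pathway. Hspa5 (BiP), an Hsp70, binds exposed hydrophobic stretches with the help of J proteins and of the exchange factor Hyou1. Calr and Canx hold glycoproteins by their sugars, and disulfide isomerases (Pdia) form and reshuffle disulfide bonds. When unfolded protein accumulates in the ER, the unfolded protein response raises many of these genes through the factors Atf6, Xbp1 and Atf4. Cytosolic Hsp70 and Hsp90 work with J proteins, Hsp110 exchange factors and co-chaperones, and part of this set answers to heat shock factors. The ring-shaped chaperonin built from Tcp1 and the Cct subunits folds actin and tubulin.

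The promoters of 5 ER members are shown first because they carry the ER stress response element (ERSE), the letters CCAAT and CCACG with any 9 bases between them, which Atf6 is known to bind together with NF-Y. Windows of 300 bases around the gene start were taken from RefSeq (GRCm38.p6) for the 54 members with an entry, and both strands were searched. The letters were found in 5 of 11 ER members (45.5%), in 0 of 32 cytosolic members, and in 37 of all 27025 genes with an entry (0.137%). Each window is written 5′ to 3′ in the direction of its gene, with capitals marking the match. In Calr the capitals hold the reverse complement of the element, and Hsp90b1 has one match in each direction.
Hspa5, chr2:34771840-34772139, plus strand: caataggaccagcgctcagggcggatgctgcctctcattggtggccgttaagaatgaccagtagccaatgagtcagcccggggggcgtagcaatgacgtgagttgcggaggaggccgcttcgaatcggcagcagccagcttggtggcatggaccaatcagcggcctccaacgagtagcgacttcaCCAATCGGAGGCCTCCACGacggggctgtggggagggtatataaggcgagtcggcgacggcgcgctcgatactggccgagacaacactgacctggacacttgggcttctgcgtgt
Hsp90b1, chr10:86705395-86705694, minus strand: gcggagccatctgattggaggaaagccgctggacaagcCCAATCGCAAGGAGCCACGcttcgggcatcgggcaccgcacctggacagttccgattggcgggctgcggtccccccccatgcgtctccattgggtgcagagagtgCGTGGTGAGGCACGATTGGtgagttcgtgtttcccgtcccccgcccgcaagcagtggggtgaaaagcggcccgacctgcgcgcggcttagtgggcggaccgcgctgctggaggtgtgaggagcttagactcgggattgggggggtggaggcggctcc
Calr, chr8:84846882-84847181, minus strand: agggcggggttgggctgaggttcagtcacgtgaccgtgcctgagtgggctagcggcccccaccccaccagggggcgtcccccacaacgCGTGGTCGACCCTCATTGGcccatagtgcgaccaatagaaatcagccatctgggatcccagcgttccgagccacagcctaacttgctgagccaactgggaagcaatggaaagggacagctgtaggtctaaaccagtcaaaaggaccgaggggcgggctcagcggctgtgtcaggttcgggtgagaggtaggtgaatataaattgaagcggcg
Canx, chr11:50325624-50325923, minus strand: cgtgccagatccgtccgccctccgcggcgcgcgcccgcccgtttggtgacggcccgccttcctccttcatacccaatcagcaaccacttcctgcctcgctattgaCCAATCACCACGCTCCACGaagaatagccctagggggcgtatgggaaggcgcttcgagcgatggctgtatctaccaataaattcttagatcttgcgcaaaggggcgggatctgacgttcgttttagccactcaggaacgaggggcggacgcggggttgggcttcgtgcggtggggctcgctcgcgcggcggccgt
Dnajc3, chr14:118937682-118937981, plus strand: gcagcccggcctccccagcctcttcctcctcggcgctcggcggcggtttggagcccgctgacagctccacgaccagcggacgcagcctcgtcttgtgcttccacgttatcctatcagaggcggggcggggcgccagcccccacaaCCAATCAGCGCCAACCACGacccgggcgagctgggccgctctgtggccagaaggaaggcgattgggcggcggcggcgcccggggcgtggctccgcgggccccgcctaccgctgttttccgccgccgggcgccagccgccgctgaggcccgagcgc

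The heat shock element (HSE), searched on both strands as GAA, TTC and GAA with any 2 bases between neighbours, was found in the cytosolic members Hsph1 and Dnajb6, in the mitochondrial member Hspe1 and in 0 of 11 ER members, against 179 of 27025 genes (0.662%). Hsph1 and Hspe1 are shown because both genes are described below. In Hsph1 the capitals hold the reverse complement, and in Hspe1 they cover a pair of overlapping matches, one on each strand. The shorter CCAAT box, which lies within every ERSE match, was in 8 of 11 ER windows, 14 of 32 cytosolic windows and 41.1% of all genes. The element ERSE-II (ATTGG and CCACG with any 1 base between them) and TGACGTGG, the core of the unfolded protein response element, were in 0 of the 54 members. A match is a description of the sequence, and no binding was measured here.
Hsph1, chr5:149636266-149636565, minus strand: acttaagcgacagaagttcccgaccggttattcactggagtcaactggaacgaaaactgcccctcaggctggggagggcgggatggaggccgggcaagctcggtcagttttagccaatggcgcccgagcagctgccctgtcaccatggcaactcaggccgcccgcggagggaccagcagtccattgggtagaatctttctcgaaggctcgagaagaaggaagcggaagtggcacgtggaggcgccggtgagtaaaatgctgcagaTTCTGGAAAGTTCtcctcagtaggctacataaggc
Hspe1, chr1:55087898-55088197, plus strand: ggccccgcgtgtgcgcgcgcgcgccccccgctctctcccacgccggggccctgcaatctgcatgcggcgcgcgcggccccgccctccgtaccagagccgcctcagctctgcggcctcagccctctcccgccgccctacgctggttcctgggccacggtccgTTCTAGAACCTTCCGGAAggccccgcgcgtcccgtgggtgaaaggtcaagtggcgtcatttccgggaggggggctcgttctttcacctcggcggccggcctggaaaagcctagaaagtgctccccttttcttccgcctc

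Values below are log2 ratios of the sample to a common reference RNA from a pool of mouse cell lines, with array 1 before array 2 of each kind. A difference between kinds is a difference of these log2 ratios with its moderated standard error (SE) from limma, n = 2 arrays per kind. A gene is called higher or lower where its Benjamini-Hochberg adjusted p within the comparison is under 0.05. Ratios of different genes are not compared as levels, since each depends on the reference. The arrays of 1 kind correlated by 0.979 to 0.989 across genes, and 91.9% to 99.6% of spots were well above background. As RNA came from bulk cultures, fewer cells with a transcript and less of it per cell cannot be told apart.

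The labels were set against marker genes. ESC markers (7 genes, Pou5f1 among them) averaged 0.56 and 0.60 in MAPC, 3.37 and 3.24 in ESC, and 0.82 and 0.75 in NS. Neural progenitor markers (7 genes) averaged 3.53 and 3.42 in NS, and primitive endoderm markers (5 genes) averaged 3.21 and 3.25 in MAPC, so each kind stood apart by its own list or, for MAPC, by the endoderm list. Fibroblast markers (6 genes) had a summed signal of 913 to 1020 intensity units in MAPC, 15600 to 17100 in ESC and 7100 to 8040 in NS. They were well above background for 5 of 6 genes on each MAPC array and for all 6 on each ESC and NS array. Blood markers (4 genes) summed to 879 to 1020 in MAPC, 2080 to 2680 in ESC and 893 to 921 in NS.

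The ER class stood higher in MAPC than in ESC. Of its 13 genes, 12 were higher and 0 lower, against 15.9% higher and 22.1% lower among all 35999 genes tested (38% called in all). Its median log2 difference was 1.10, with a range of 0.24 to 2.47, against a median of 0.01 over all genes. At least 2-fold higher were 7 of the 13, against 2.95% of all genes. Here and below, all genes means every tested entry. Of 36011 such entries 12114 had a gene name, as all members do, and shares among named genes alone were not computed. The single ER gene that did not pass was the disulfide isomerase Pdia3. Within replicate number 1 alone the class median was 1.16, and within number 2 it was 1.11. Of the fibroblast markers 0 were higher and 5 of 6 lower in MAPC than in ESC, while the primitive endoderm markers were higher in 5 of 5; the part of either cell type in the ER result was not tested.

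Against NS the ER class was also higher in MAPC. Here 12 of 13 genes were higher and 0 lower, against 21.2% higher and 22.5% lower among all genes (43.7% called), with a median of 1.20 for the class and 0.03 for all genes. At least 2-fold higher were 9 of 13, against 4.44% of all genes, and Canx did not pass. Between ESC and NS the class was split and shifted less, with 7 genes higher and 3 lower in ESC and a median of 0.39, against 19.8% and 18.3% of 36007 genes (38.1% called). At least 2-fold higher or lower in ESC than in NS were 0 of the 13, against 4.72% and 4.25% of all genes. The comparisons of MAPC with ESC and with NS share the MAPC arrays, so they are given side by side and not as separate evidence. By group means alone MAPC was highest for 13 of 13 ER genes, against 41.1% of all genes, and NS was lowest for 10 and ESC for 3.

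**Figure D1:**
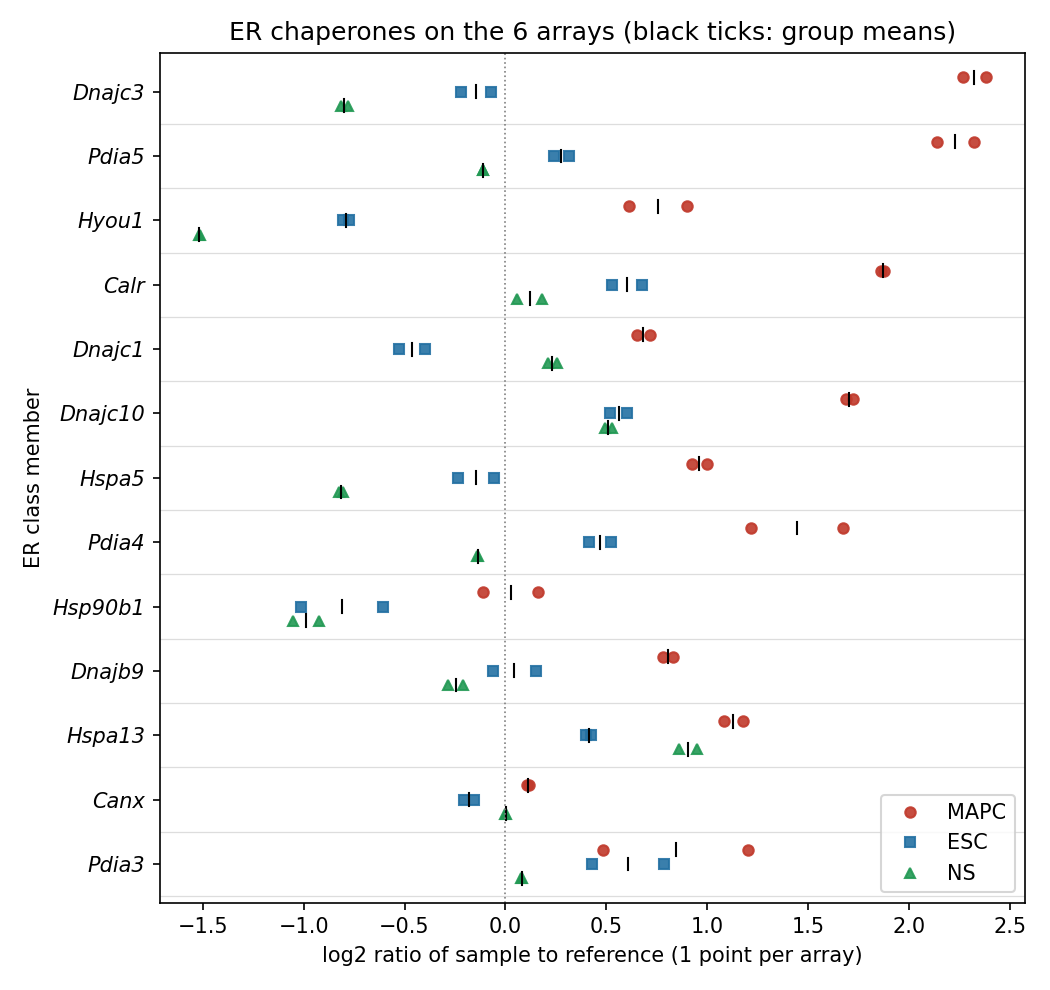
Log2 ratio of sample to reference for the 13 ER members on each of the 6 arrays, with 1 point per array (MAPC circles, ESC squares, NS triangles), rows ordered by the difference of MAPC from ESC, and black ticks at group means. MAPC means lie to the right in every row, most widely for Dnajc3, and the MAPC and ESC points overlap for Pdia3.

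The Hsp70 system of the ER came first among these genes. Hspa5, the central ER Hsp70, measured 0.92 and 1.00 in MAPC, -0.23 and -0.055 in ESC, and -0.80 and -0.82 in NS. The 3 kinds did not overlap, and their order was MAPC, ESC, NS. Hspa5 was higher in MAPC than in ESC by 1.10 ± 0.0712 (adjusted p = 1e-05) and than in NS by 1.77 ± 0.0712 (adjusted p = 5.13e-07), and higher in ESC than in NS by 0.67 ± 0.0712 (adjusted p = 0.000151). Hyou1, the exchange factor that releases nucleotide from Hspa5, measured 0.61 and 0.90 in MAPC, -0.78 and -0.81 in ESC, and -1.51 and -1.52 in NS. It kept the same order without overlap, with differences of 1.54 ± 0.0902 (adjusted p = 5.96e-06) for MAPC minus ESC, 2.27 ± 0.0902 (adjusted p = 4.89e-07) for MAPC minus NS and 0.72 ± 0.0902 (adjusted p = 0.000372) for ESC minus NS. A second, much dimmer Hyou1 probe gave smaller differences of 0.42 and 0.56 for MAPC minus ESC and MAPC minus NS, both past the threshold, and 0.135 for ESC minus NS, which did not pass. Hspa13, an ER-bound protein with an Hsp70 ATPase domain, measured 1.18 and 1.08 in MAPC, 0.40 and 0.43 in ESC, and 0.95 and 0.86 in NS. It was higher in MAPC than in ESC by 0.72 ± 0.061 (adjusted p = 4.74e-05), its lead over NS was small at 0.22 ± 0.061 (adjusted p = 0.0194), and ESC lay below NS by -0.49 ± 0.061 (adjusted p = 0.000361). The call against NS was lost in 4 of 15 alternative settings, with adjusted p between 0.0176 and 0.186.

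The J proteins of the ER stimulate the ATPase of Hspa5. Dnajc3, also called p58IPK and known as an inhibitor of eIF2alpha kinases, had the widest difference of the class and measured 2.27 and 2.38 in MAPC, -0.22 and -0.074 in ESC, and -0.82 and -0.78 in NS. Both MAPC arrays lay more than 2 log2 units above every other array. Its difference was 2.47 ± 0.0699 (adjusted p = 1.56e-07) for MAPC minus ESC, 3.12 ± 0.0699 (adjusted p = 3.03e-08) for MAPC minus NS and 0.65 ± 0.0699 (adjusted p = 0.000157) for ESC minus NS. Dnajc10 (ERdj5), a reductase that prepares misfolded proteins for degradation, measured 1.69 and 1.72 in MAPC, 0.52 and 0.60 in ESC, and 0.53 and 0.49 in NS. MAPC alone stood apart, by 1.14 ± 0.0559 (adjusted p = 2.31e-06) over ESC and 1.20 ± 0.0559 (adjusted p = 1.18e-06) over NS, while ESC minus NS was 0.053 ± 0.0559 (adjusted p = 0.55). Dnajb9 (ERdj4), which acts on the stress sensor Ire1 through Hspa5, measured 0.83 and 0.78 in MAPC, 0.15 and -0.061 in ESC, and -0.28 and -0.21 in NS, and was higher in MAPC than in ESC by 0.76 ± 0.0773 (adjusted p = 0.000129) and than in NS by 1.05 ± 0.0773 (adjusted p = 1.5e-05). Its sample signal lay at or below the highest negative control spot on 3 of 6 arrays. Under the alternatives these Dnajb9 differences ran over 0.25 to 1.14 and 0.31 to 1.67, and ESC minus NS (0.29) lost its call in 5 of 15. Dnajc1 (ERdj1), a membrane J protein at the translocon, measured 0.65 and 0.71 in MAPC, -0.53 and -0.40 in ESC, and 0.21 and 0.25 in NS. It was higher in MAPC than in ESC by 1.15 ± 0.063 (adjusted p = 4.27e-06) and than in NS by 0.45 ± 0.063 (adjusted p = 0.000605), and lower in ESC than in NS by -0.69 ± 0.063 (adjusted p = 6.24e-05), so Dnajc1 and Hspa13 had ESC in last place.

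The lectin chaperones were not alike. Calr, the soluble calcium-binding lectin, measured 1.86 and 1.88 in MAPC, 0.53 and 0.68 in ESC, and 0.18 and 0.056 in NS. Its arrays did not overlap between kinds. The difference was 1.27 ± 0.0717 (adjusted p = 5.03e-06) for MAPC minus ESC, 1.75 ± 0.0717 (adjusted p = 5.87e-07) for MAPC minus NS and 0.48 ± 0.0717 (adjusted p = 0.00102) for ESC minus NS, and a second probe gave 1.33, 1.501 and 0.17, the last of these not past the threshold. Canx, its membrane-bound relative, measured 0.11 and 0.12 in MAPC, -0.16 and -0.20 in ESC, and 0.003 and -0.002 in NS on its brightest probe. MAPC was higher than ESC by 0.29 ± 0.0514 (adjusted p = 0.00269), MAPC minus NS was 0.11 ± 0.0514 (adjusted p = 0.124), and ESC lay below NS by -0.18 ± 0.0514 (adjusted p = 0.0263). The dimmer Canx probe, 1.29 and 1.40 in MAPC, 0.56 and 0.66 in ESC, and 0.21 and 0.24 in NS, gave larger differences of 0.73 and 1.11 for MAPC minus ESC and MAPC minus NS, both past the threshold, and turned ESC minus NS to 0.38 (adjusted p = 0.00187). The direction of Canx between ESC and NS is therefore unsettled.

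Among the disulfide isomerases Pdia5 had the widest difference, measuring 2.14 and 2.32 in MAPC, 0.24 and 0.31 in ESC, and -0.11 and -0.11 in NS. It was higher in MAPC by 1.95 ± 0.0712 (adjusted p = 5.04e-07) against ESC and 2.34 ± 0.0712 (adjusted p = 1.24e-07) against NS, and its second probe gave 1.89 and 2.29. Pdia4 (ERp72) measured 1.22 and 1.67 in MAPC, 0.41 and 0.53 in ESC, and -0.14 and -0.14 in NS, higher in MAPC by 0.97 ± 0.132 (adjusted p = 0.000646) against ESC and 1.58 ± 0.132 (adjusted p = 3.11e-05) against NS. Pdia3 (ERp57), which works on glycoproteins held by Calr and Canx, measured 1.20 and 0.48 in MAPC, 0.43 and 0.79 in ESC, and 0.082 and 0.077 in NS. The MAPC arrays lay far apart and overlapped those of ESC. Both of its probes split in this way. Pdia3 gave 0.24 ± 0.216 (adjusted p = 0.452) for MAPC minus ESC and 0.76 ± 0.216 (adjusted p = 0.0229) for MAPC minus NS. Without MAPC replicate 2 the comparison with ESC passed (0.60, adjusted p = 0.0167), and without MAPC replicate 1 it turned to -0.12 without passing, so a single array decides this gene.

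Hsp90b1 (GRP94), the ER Hsp90 that matures integrins and Toll-like receptors, measured -0.11 and 0.16 in MAPC, -1.01 and -0.61 in ESC, and -1.05 and -0.92 in NS. It was higher in MAPC by 0.84 ± 0.14 (adjusted p = 0.00204) against ESC and 1.01 ± 0.14 (adjusted p = 0.000577) against NS, and ESC minus NS was 0.18 ± 0.14 (adjusted p = 0.405). The reference channel of this probe was saturated on all 6 arrays. A second probe with no saturated spot gave 0.77 (adjusted p = 0.00116), 1.08 (adjusted p = 0.000128) and 0.32 (adjusted p = 0.0682) in the same order of comparisons. The 5 genes with an ERSE match, Hspa5, Hsp90b1, Calr, Canx and Dnajc3, spanned 0.29 to 2.47 for MAPC minus ESC, which is nearly the range of the whole ER class.

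**Figure D2:**
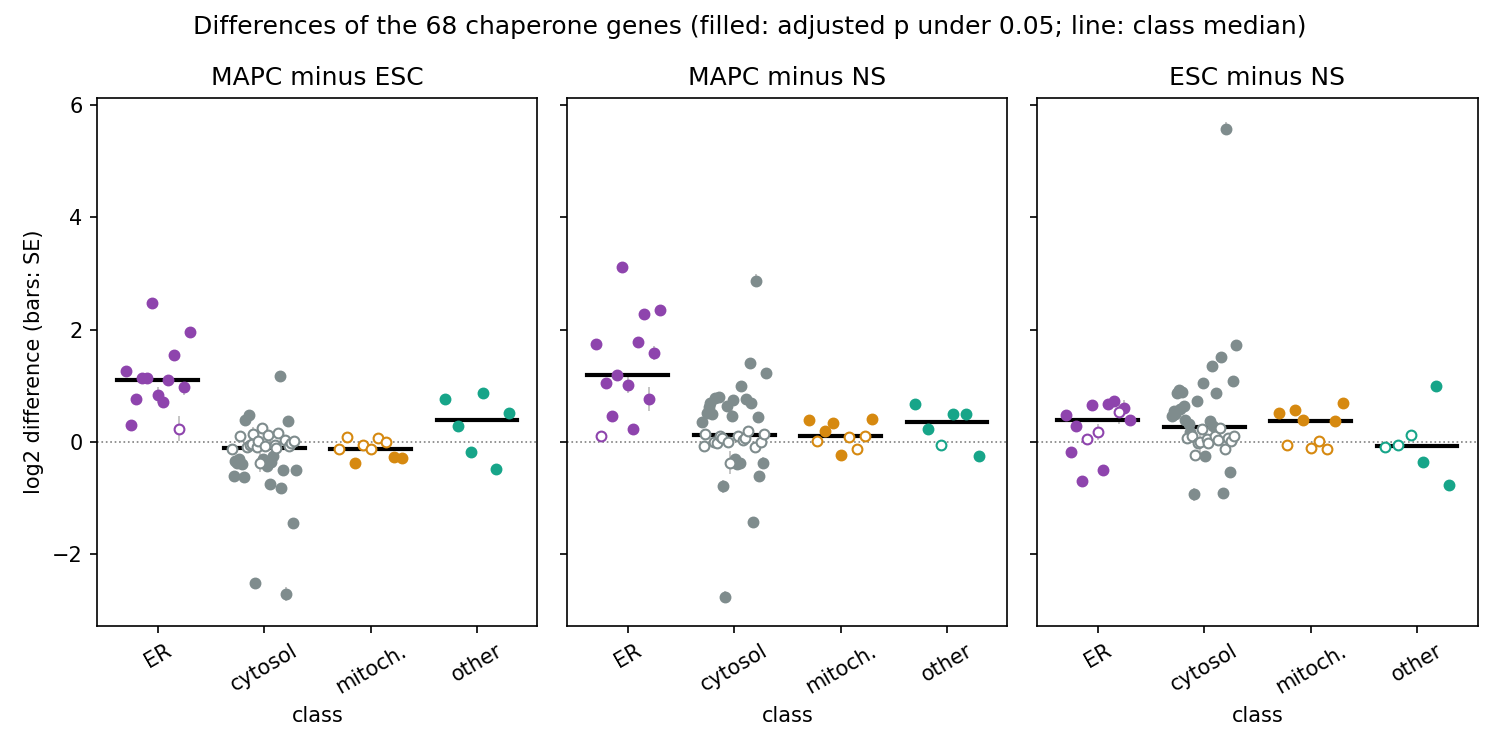
Log2 differences with SE bars for the 68 chaperone genes in each comparison, by class, with filled points past the threshold and a line at the class median. The ER medians are 1.10 and 1.20 in the comparisons that involve MAPC and 0.39 for ESC minus NS, while the cytosolic medians are -0.10, 0.12 and 0.27.

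The cytosolic class followed another order. Against ESC more of it was lower than higher in MAPC: of 40 genes, 4 were higher and 17 lower, beside the 15.9% and 22.1% of all genes, with a median of -0.10. At least 2-fold higher was 1 and lower 3, against 2.95% and 5.61% of all genes. Against NS 17 were higher and 8 lower in MAPC, beside 21.2% and 22.5% of all genes, with a median of 0.12. At least 2-fold higher were 4 and lower 2, against 4.44% and 6.97%. Between ESC and NS 21 were higher and 4 lower in ESC, beside 19.8% and 18.3%, with a median of 0.27, and 6 were at least 2-fold higher, against 4.72%. By group means ESC was highest for 23 of 40 genes, against 28.5% of all genes, and NS was lowest for 25 of 40, against 39.8%. Within replicate numbers 1 and 2 the median for MAPC minus ESC was -0.11 and -0.12, for MAPC minus NS 0.10 and 0.18, and for ESC minus NS 0.29 and 0.31. The summed fibroblast marker signal was also highest in ESC, at 913 to 1020 in MAPC, 15600 to 17100 in ESC and 7100 to 8040 in NS. So was that of the neuron markers (4 genes), at 6540 to 8430 in MAPC, 26000 to 27100 in ESC and 2050 to 2760 in NS, with all 4 well above background on every array. Gene by gene the neuron list was split, with 2 higher and 2 lower in ESC than in NS. In MAPC 1 was higher and 1 lower than in ESC, and 1 was higher and 3 lower than in NS. The part of either list in these differences was not tested. At or below the highest negative control on at least 1 array were 14 of the 40 genes, and on all arrays none.

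Hspb1, the small heat shock protein that holds unfolded clients and binds actin, had the widest difference of all 68 genes for MAPC minus ESC and for ESC minus NS, and for MAPC minus NS it came after Dnajc3. It measured 0.80 and 0.41 in MAPC, 3.25 and 3.39 in ESC, and -2.26 and -2.26 in NS. The 3 kinds were far apart, with MAPC between ESC above and NS below. MAPC lay below ESC by -2.71 ± 0.118 (adjusted p = 1.27e-06) and above NS by 2.87 ± 0.118 (adjusted p = 6.04e-07), and ESC lay above NS by 5.58 ± 0.118 (adjusted p = 5.13e-08). A second probe gave -2.81, 2.66 and 5.46. Signals in NS were weak, at 85.2 and 87.9 on the brightest probe and 41.5 and 34.3 on the second. The strongest negative control spots of the NS arrays were 30.5 and 69.1. Under the alternatives the differences of Hspb1 ran over -3.94 to -2.52, 1.67 to 3.36 and 4.38 to 6.91, so the sizes are not settled. Both probes are shown because they gave like differences. The last bases of probe A are the first bases of probe B, so the probes adjoin and are not a separate check of each other. Probe A is the brighter.
Hspb1 probe A: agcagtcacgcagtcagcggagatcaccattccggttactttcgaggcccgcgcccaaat
Hspb1 probe B: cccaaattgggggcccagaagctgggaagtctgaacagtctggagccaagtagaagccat

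The other Hspb members differed less. Hspb8, which delivers clients to autophagy with Bag3, measured -0.93 and -0.85 in MAPC, 0.65 and 0.47 in ESC, and -0.39 and -0.64 in NS. It was lower in MAPC than in ESC by -1.45 ± 0.0981 (adjusted p = 1.32e-05), and lower than in NS by -0.37 ± 0.0981 (adjusted p = 0.0163), a call lost in 4 of 15 alternative settings. In MAPC its signals were 12.0 and 18.2, less than the strongest negative control spots (39.9 and 165), and MAPC minus ESC ran over -2.65 to -0.43 under the alternatives, past the threshold in each. Hspb3, a muscle form, measured -0.12 and -0.059 in MAPC, 0.024 and -0.044 in ESC, and 0.52 and 0.53 in NS, lower in MAPC and in ESC than in NS by -0.61 and -0.53. Hspb2 measured 0.23 and 0.16 in MAPC, -0.18 and -0.19 in ESC, and -0.21 and -0.28 in NS, higher in MAPC by 0.38 against ESC and 0.44 against NS. At or below the highest negative control lay Hspb8 on 3 of 6 arrays, Hspb3 on 4 and Hspb2 on 3. Under the alternatives Hspb3 ran over -1.19 to -0.14 for MAPC minus NS and -1.01 to -0.13 for ESC minus NS. Hspb2 ran over 0.10 to 0.71 for MAPC minus ESC and 0.12 to 0.79 for MAPC minus NS. The sizes of these genes are not settled. Hspb7 did not pass in any comparison (-0.02 to 0.01).

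The Hsp110 exchange factors, which recharge cytosolic Hsp70, shared the order ESC, MAPC, NS in 2 of 3 cases. Hsph1 measured 1.96 and 2.04 in MAPC, 2.43 and 2.57 in ESC, and 0.78 and 0.77 in NS. Hspa4 measured 0.90 and 0.88 in MAPC, 1.71 and 1.72 in ESC, and 0.21 and 0.19 in NS. Neither gene's arrays overlapped between kinds. Hsph1 was lower in MAPC than in ESC by -0.50 ± 0.0648 (adjusted p = 0.000516) and higher than in NS by 1.23 ± 0.0648 (adjusted p = 2.24e-06), and higher in ESC than in NS by 1.73 ± 0.0648 (adjusted p = 5.6e-07). Hspa4 gave -0.82 ± 0.0504 (adjusted p = 7.66e-06), 0.69 ± 0.0504 (adjusted p = 1.46e-05) and 1.51 ± 0.0504 (adjusted p = 3.29e-07) in the same comparisons. Hspa4l, the third of them, measured -1.13 and -1.20 in MAPC, -0.69 and -0.63 in ESC, and 0.35 and 0.15 in NS and had the reverse placing of NS. It was lower in MAPC than in ESC by -0.51 ± 0.0762 (adjusted p = 0.00116) and than in NS by -1.42 ± 0.0762 (adjusted p = 2.49e-06), and lower in ESC than in NS by -0.92 ± 0.0762 (adjusted p = 3.83e-05). Hspa4l was dim, with MAPC signals of 12.2 and 17.6, less than the strongest negative control spots (39.9 and 165), and 3 of 6 arrays fell short of that level. The calls held in all alternatives, but the sizes ran over -1.35 to -0.088 for MAPC minus ESC and -2.72 to -0.42 for MAPC minus NS, so the sizes are not settled.

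Cytosolic Hsp90 and the constitutive Hsp70 were among the brightest probes, and saturation limits them. Hsp90aa1, the inducible Hsp90, measured 0.53 and 0.54 in MAPC, 0.95 and 0.84 in ESC, and -0.38 and -0.55 in NS, with both ESC arrays saturated in the sample channel on all 3 of its probes. In the normalized sample channel it was at least 1.32-fold lower in MAPC than in ESC, from mean log2 signals of 15.81 in MAPC and 16.21 in ESC. By that measure ESC lay at least 2.68-fold above NS. The ratio fit gave smaller differences, -0.36 (adjusted p = 0.00558) for MAPC minus ESC and 1.36 (adjusted p = 3.46e-06) for ESC minus NS. In that fit the dimmer probes gave -0.19 and -0.44 for MAPC minus ESC, and 0.90 and 1.02 for ESC minus NS. The sizes are therefore not settled. No saturation touched MAPC minus NS, at 1.00 ± 0.073 (adjusted p = 1.44e-05) on the brightest Hsp90aa1 probe. The dimmer probes gave smaller differences there of 0.71 and 0.58, both past the threshold. Hsp90ab1, the constitutive form, measured 0.23 and 0.34 in MAPC, 0.60 and 0.49 in ESC, and 0.27 and 0.24 in NS, lower in MAPC than in ESC by -0.26 ± 0.0635 (adjusted p = 0.0141) and higher in ESC than in NS by 0.29 ± 0.0635 (adjusted p = 0.00803). MAPC minus NS was 0.03 ± 0.0635 (adjusted p = 0.743) for Hsp90ab1. These calls of Hsp90ab1 were lost in 3 of 15 and 2 of 15 alternative settings.

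Hspa8, the constitutive cytosolic Hsp70, measured 0.41 and 0.68 in MAPC, 0.46 and 0.55 in ESC, and 0.65 and 0.61 in NS on its brightest probe, which was saturated on all MAPC and ESC arrays in the sample channel and on all 6 arrays in the reference channel. That probe passed in no comparison. The other 4 Hspa8 probes had no saturated spot and gave -0.28 to -0.17 for MAPC minus ESC, 0.27 to 0.48 for MAPC minus NS and 0.55 to 0.70 for ESC minus NS. All 4 passed in the comparisons with NS, and 1 of 4 passed for MAPC minus ESC. By their means these probes had ESC highest and NS lowest, but the place of ESC above MAPC passed on that 1 probe alone. A pair of the 4 probes share most of their bases, so they are not 4 separate readings. Hspa14, a ribosome-associated Hsp70, measured 1.89 and 1.98 in MAPC, 2.02 and 2.05 in ESC, and 1.21 and 1.12 in NS, higher in MAPC and in ESC than in NS by 0.77 and 0.87, with MAPC minus ESC at -0.10 and not past the threshold. Dnajc2, its J protein partner at the ribosome, measured 0.61 and 0.68 in MAPC, 0.89 and 1.01 in ESC, and -0.13 and -0.072 in NS, with differences of -0.31, 0.74 and 1.05 that all passed.

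Hspa2, a testis-rich Hsp70, went with the ER genes in having MAPC highest, and measured 1.60 and 1.84 in MAPC, 0.55 and 0.54 in ESC, and 0.34 and 0.28 in NS. It was higher in MAPC by 1.17 ± 0.0819 (adjusted p = 1.6e-05) against ESC and 1.41 ± 0.0819 (adjusted p = 3.83e-06) against NS. A dimmer Hspa2 probe gave 0.33 (adjusted p = 0.00736) and -0.05 (adjusted p = 0.608), so the difference from NS rests on 1 of its 2 probes. Both are shown for that reason, with the brighter as probe A.
Hspa2 probe A: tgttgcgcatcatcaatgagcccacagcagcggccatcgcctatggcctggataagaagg
Hspa2 probe B: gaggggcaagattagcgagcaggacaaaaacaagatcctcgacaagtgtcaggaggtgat

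The cytosolic J proteins, which bring clients to Hsp70, did not move as a group. Dnaja1 measured 0.52 and 0.54 in MAPC, 1.11 and 1.21 in ESC, and 0.48 and 0.56 in NS. ESC alone stood apart, with MAPC lower by -0.63 ± 0.06 (adjusted p = 9e-05) and ESC minus NS at 0.64 ± 0.06 (adjusted p = 7.64e-05), while MAPC and NS overlapped. Dnajb1, the main heat-inducible J protein, measured 1.72 and 1.81 in MAPC, 1.27 and 1.29 in ESC, and 1.00 and 0.93 in NS. It had MAPC highest, by 0.48 ± 0.0588 (adjusted p = 0.000355) over ESC and 0.80 ± 0.0588 (adjusted p = 1.47e-05) over NS. Dnaja2 measured 1.09 and 1.02 in MAPC, 0.70 and 0.64 in ESC, and 0.26 and 0.29 in NS and had the same order, with 0.38 and 0.78. Dnajc7, a co-chaperone that binds both Hsp70 and Hsp90, measured 0.64 and 0.61 in MAPC, 1.36 and 1.42 in ESC, and 1.04 and 0.98 in NS, lowest in MAPC by -0.76 against ESC and -0.38 against NS.

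Dnajb4 was the J protein with the most negative difference of MAPC from ESC. It measured -4.18 and -3.98 in MAPC, -1.70 and -1.43 in ESC, and -1.32 and -1.33 in NS. MAPC lay below ESC by -2.52 ± 0.1 (adjusted p = 7.89e-07) and below NS by -2.76 ± 0.1 (adjusted p = 3.07e-07), and ESC and NS did not differ past the threshold (-0.24 ± 0.1 (adjusted p = 0.11)). Its MAPC signals were 69.8 and 89.3, beside strongest negative control spots of 39.9 and 165, so MAPC array 2 lay below that level. Under the alternatives the Dnajb4 differences ran over -3.04 to -1.37 for MAPC minus ESC and -3.30 to -1.56 for MAPC minus NS. The sizes are therefore not settled. Dnajb3, a J protein described from mouse testis, measured 0.89 and 0.77 in MAPC, 0.85 and 0.53 in ESC, and 1.74 and 1.51 in NS, lower in MAPC and in ESC than in NS by -0.79 and -0.94, the call of MAPC being lost in 2 of 15 alternative settings. Of the 9 Dnajb genes, the ER member Dnajb9 included, 2 were higher and 1 lower in MAPC than in ESC, beside 15.9% and 22.1% of all genes. For Dnajb8 and Hspbp1 an outlier spot left 1 measured NS array, and neither passed in any comparison on its brightest probe. The dimmer Hspbp1 probes, measured on all arrays, passed as higher in MAPC, by 0.209 and 0.213 against ESC and 0.28 and 0.52 against NS. For ESC minus NS they gave 0.069 (adjusted p = 0.487) and 0.31 (adjusted p = 0.00343).

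The 7 Cct members were counted as a family, with Cct6a and Cct6b both among them and Cct3 absent. All 7 were higher in ESC than in NS, with a median of 0.58 and a range of 0.47 to 0.93, beside 19.8% of all genes. Against ESC 5 of 7 were lower in MAPC and 0 higher (median -0.35), beside 22.1% and 15.9% of all genes. Against NS 5 of 7 were higher and 0 lower (median 0.49), beside 21.2% and 22.5%. Cct8 measured 1.31 and 1.31 in MAPC, 1.71 and 1.70 in ESC, and 0.85 and 0.78 in NS. Cct6a measured 0.94 and 1.04 in MAPC, 1.37 and 1.35 in ESC, and 0.49 and 0.47 in NS. Cct4 measured -0.60 and -0.38 in MAPC, 0.15 and 0.11 in ESC, and -0.48 and -0.37 in NS. ESC was highest in these 3 genes, and MAPC stood between ESC and NS for Cct8 and Cct6a while MAPC and NS overlapped for Cct4. The call of MAPC below ESC for Cct6a rests on 1 of its 2 probes. For MAPC minus NS the brightest Cct5 probe gave 0.145 (adjusted p = 0.0791), and its other probe passed at 0.254 (adjusted p = 0.00809). Cct4 has a single probe, whose reference channel was saturated on 2 of 6 arrays, so its ratios there are not exact. Cct7 had overlapping MAPC and ESC arrays, at 0.096 and 0.33 in MAPC, 0.11 and 0.088 in ESC, and -0.48 and -0.49 in NS. No single subunit differed 2-fold in any comparison. Tcp1, the remaining subunit of the ring with a probe, gave -0.19, -0.054 and 0.14 against ESC, against NS and for ESC minus NS, and passed in none. With median centring in place of loess Cct4 and Tcp1 turned to 0.29 and 0.26 for MAPC minus NS.

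**Figure D3:**
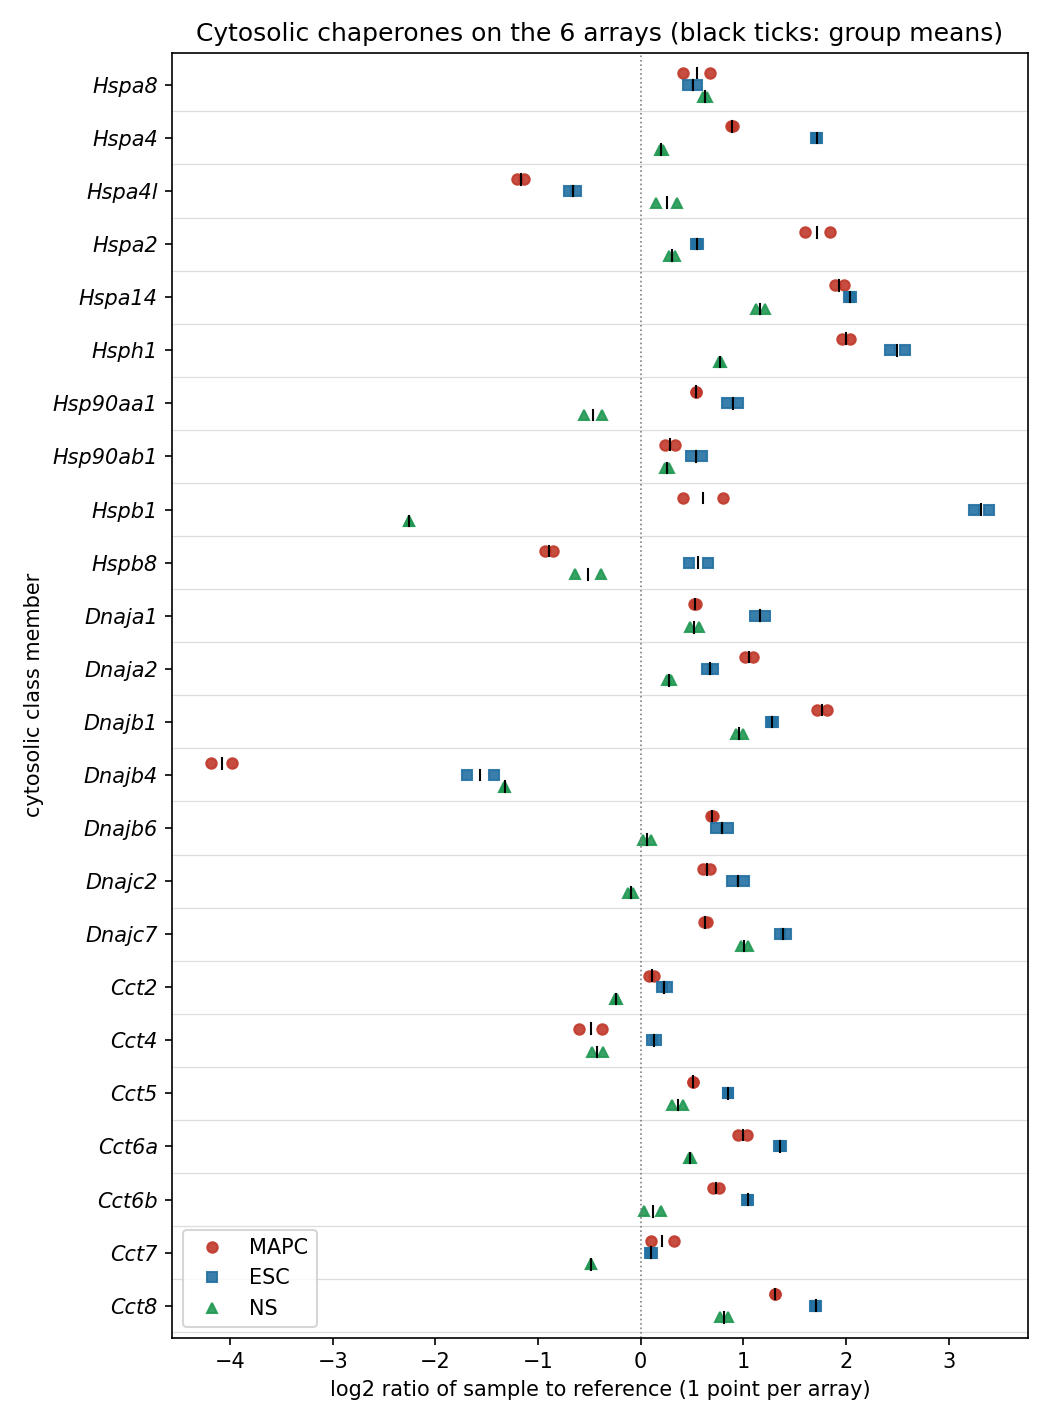
Log2 ratio of sample to reference for 24 cytosolic members on each of the 6 arrays, grouped as Hsp70 and Hsp110, Hsp90, small heat shock proteins, J proteins and Cct subunits, with black ticks at group means. Hspb1 spans the widest range, with ESC near 3.3 and NS at -2.26, and the points of each Cct gene lie close together by comparison.

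The mitochondrial members were counted in the same way. Of 9 genes 0 were higher and 3 lower in MAPC than in ESC, 4 were higher and 1 lower in MAPC than in NS, and 5 were higher and 0 lower in ESC than in NS. All genes gave 15.9% and 22.1%, 21.2% and 22.5%, and 19.8% and 18.3% in these comparisons, so the 3 lower of 9 are near that background. Hspe1, the chaperonin cofactor Hsp10, measured -1.22 and -1.08 in MAPC, -0.94 and -0.78 in ESC, and -1.63 and -1.48 in NS, with differences of -0.29, 0.41 and 0.69 that all passed. Its reference channel was saturated on 4 of 6 arrays, and 2 unsaturated probes gave -0.42 and -0.37, 0.34 and 0.33, and 0.77 and 0.70. Hspa9 (mortalin), the matrix Hsp70, measured -0.59 and -0.48 in MAPC, -0.26 and -0.27 in ESC, and -0.61 and -0.68 in NS, lower in MAPC than in ESC by -0.27 and higher in ESC than in NS by 0.38. Both calls of MAPC against ESC were lost in some alternative settings, 3 of 15 for Hspe1 and 2 of 15 for Hspa9. Dnajc15, a J protein of the import motor, measured -1.22 and -1.14 in MAPC, -0.82 and -0.78 in ESC, and -1.39 and -1.36 in NS, and Dnajc19, its relative, measured -0.25 and -0.18 in MAPC, -0.18 and -0.13 in ESC, and -0.59 and -0.51 in NS. NS was lowest for both, though Dnajc15 lost its call of MAPC over NS in 6 of 15 alternative settings. Dnaja3 (Tid1), the main J protein of the matrix, measured 0.65 and 0.61 in MAPC, 0.83 and 0.67 in ESC, and 0.28 and 0.20 in NS, higher in MAPC and in ESC than in NS by 0.39 and 0.51. Dnajc28 measured 0.087 and -0.056 in MAPC, 0.17 and 0.11 in ESC, and 0.25 and 0.23 in NS and was lower in MAPC than in NS by -0.23, a call lost in 7 of 15 alternative settings. Its signals of 9.66 to 28.6 lay at or below the highest negative control on 5 of 6 arrays.

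The 6 remaining genes were placed in none of these classes. Dnajc18, Dnajc14 and Dnajc16, J proteins anchored in the ER membrane, were each higher in MAPC than in ESC (0.86, 0.76 and 0.28) and than in NS (0.50, 0.67 and 0.23). For Dnajc16 these calls were lost in 3 of 15 and 4 of 15 alternative settings. Dnajc18 measured 0.56 and 0.58 in MAPC, -0.30 and -0.28 in ESC, and 0.031 and 0.11 in NS. Dnajc14 measured 0.56 and 0.60 in MAPC, -0.14 and -0.22 in ESC, and -0.031 and -0.15 in NS. In both genes MAPC lay clear of ESC and NS. Dnajc8, a splicing factor, measured 1.06 and 1.07 in MAPC, 1.56 and 1.55 in ESC, and 0.60 and 0.53 in NS and had the order ESC, MAPC, NS. A second Dnajc8 probe gave -0.08 for MAPC minus ESC (adjusted p = 0.359), so the place of ESC above MAPC rests on 1 of 2 probes. Dnajc9, a nuclear histone chaperone, measured 1.59 and 1.45 in MAPC, 0.93 and 1.09 in ESC, and 1.77 and 1.78 in NS and had NS highest and ESC lowest. Its call of MAPC below NS was lost in 5 of 15 alternative settings. Dnajc17, linked to splicing, was lower in MAPC than in ESC by -0.18, a call lost in 10 of 15 alternative settings.

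Other genes of the ER folding pathway were counted from a list of unfolded protein response (UPR) regulators and ER folding partners. Of 35 tested, 29 were higher and 1 lower in MAPC than in ESC (median 0.86), and 28 were higher and 4 lower in MAPC than in NS (median 0.94). Between ESC and NS 12 were higher and 9 lower in ESC (median 0.01). The shares over all genes were 15.9% higher and 22.1% lower for MAPC minus ESC, 21.2% and 22.5% for MAPC minus NS, and 19.8% and 18.3% for ESC minus NS. Serpinh1, the collagen chaperone Hsp47, had the widest difference from ESC at 2.65 ± 0.109 (adjusted p = 9.11e-07), from 3.48 and 3.62 in MAPC, 0.72 and 1.07 in ESC, and 1.68 and 1.70 in NS. Selenos, a selenoprotein of ER-associated degradation, gave 1.96 ± 0.0592 (adjusted p = 2.14e-07) against ESC and 2.06 ± 0.0592 (adjusted p = 9.33e-08) against NS. P4hb, the founding disulfide isomerase, gave 1.71 ± 0.0766 (adjusted p = 1.45e-06) and 1.84 ± 0.0766 (adjusted p = 6.26e-07). Creld2, an ER stress-responsive protein, led against NS beside Selenos with 1.99.

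The regulators of the response were less even. Xbp1, the factor whose messenger RNA is spliced by Ire1, measured 0.56 and 0.56 in MAPC, -0.016 and -0.007 in ESC, and -1.02 and -0.97 in NS, higher in MAPC by 0.57 against ESC and 1.56 against NS. The arrays do not read its splicing. Atf4, translated when eIF2alpha is phosphorylated, gave -0.16 against ESC, not past the threshold, and was lower in MAPC than in NS by -0.20. Ddit3 (Chop), a death-linked target of Atf4, gave -0.054 against ESC, not past the threshold, and was lower by -0.25 against NS. Each of the calls against NS was lost in some alternative settings, 8 of 15 for Atf4 and 5 of 15 for Ddit3. Derl3, an ER degradation channel protein, measured -1.42 and -1.42 in MAPC, 0.15 and -0.038 in ESC, and -2.06 and -2.07 in NS and was the list's single gene lower in MAPC than in ESC, by -1.48. Ero1a, the oxidase that recharges disulfide isomerases and is known to respond to low oxygen, measured -2.03 and -2.18 in MAPC, -2.70 and -2.87 in ESC, and -0.52 and -0.60 in NS, higher in MAPC than in ESC by 0.69 and lower than in NS by -1.54. MAPC were grown in 5% oxygen, and its part in these values was not tested.

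In the list of heat shock factors and cytosolic co-chaperones, of 30 genes 6 were higher and 17 lower in MAPC than in ESC (median -0.25), 16 were higher and 5 lower in MAPC than in NS (median 0.22), and 20 were higher and 2 lower in ESC than in NS (median 0.41). Set beside the shares over all genes, 15.9% and 22.1%, 21.2% and 22.5%, and 19.8% and 18.3%, the 6 higher against ESC and the 5 lower against NS are near the background. Cryab, a small heat shock protein under another symbol, measured 3.74 and 3.87 in MAPC, 0.78 and 0.71 in ESC, and -1.13 and -1.15 in NS, higher in MAPC by 3.06 ± 0.0633 (adjusted p = 3.92e-08) against ESC and 4.95 ± 0.0633 (adjusted p = 6.49e-09) against NS, which is not the order of Hspb1. Fkbp5, an Hsp90 co-chaperone induced by glucocorticoids, measured -1.35 and -1.37 in MAPC, 1.76 and 1.72 in ESC, and 0.28 and 0.28 in NS, lower in MAPC by -3.10 and -1.64. Bag2, an exchange factor of Hsp70, was higher in MAPC by 1.70 and 1.60. Pfdn2, a prefoldin subunit that hands actin and tubulin to the Cct ring, and Tomm34 were lower in MAPC than in ESC by -0.94 and -0.88. Hsf1, the main heat shock factor, gave -0.085 against ESC, not past the threshold, and 0.17 against NS, a call lost in 13 of 15 alternative settings.

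Mitochondrial folding and protease partners gave 2 higher and 7 lower of 13 genes in MAPC against ESC (median -0.19), 8 higher and 3 lower against NS (median 0.24), and 9 higher and 1 lower in ESC against NS (median 0.36). All genes gave 15.9% and 22.1%, 21.2% and 22.5%, and 19.8% and 18.3%. Trap1, the mitochondrial Hsp90, was lower in MAPC than in ESC by -0.47 and higher than in NS by 0.24, a call against NS lost in 4 of 15 alternative settings. Htra2, a protease of the intermembrane space, and Pam16, of the import motor, were the 2 genes higher in MAPC than in ESC, by 0.73 and 0.64. Clpb, a disaggregase, was the lowest against ESC at -0.64.

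**Figure D4:**
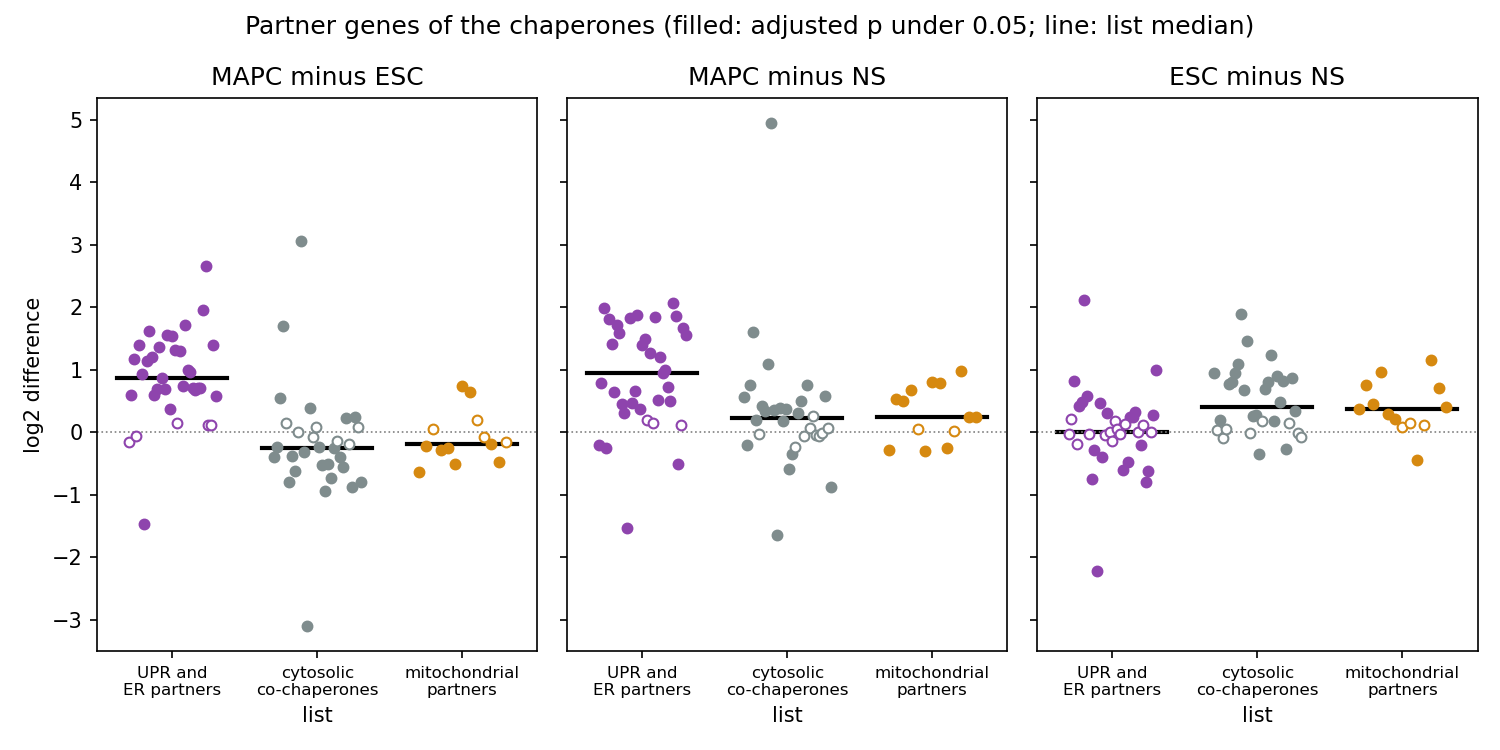
Log2 differences of the partner genes in each comparison, by list, with filled points past the threshold and a line at the list median. The UPR and ER list has medians of 0.86 and 0.94 where MAPC is compared and 0.01 for ESC minus NS, and the cytosolic list has -0.25, 0.22 and 0.41.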

How the data were processed

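RNA of the 6 cultures was labelled with Cy3 and hybridized to Agilent 2-colour arrays with a Cy5 reference pool, without dye swap. The deposited scanner files hold spot intensity and background of both channels, and per the file headers they were made with Agilent Feature Extraction (version A.7.5.1). The deposited value table holds log10 values with column medians of 2.95 to 2.97, in the range of a signal and not centred like a ratio, and how they were scaled stays unknown. It served as an alternative through differences between arrays, which correlated with those of the sample-to-reference ratios of the processed signals by at least 0.827. Their direction and the log10 scale rest on that match. No genome build is given in the sources used here. Columns of per-sample values without a sample numbered 0.

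From the deposited intensity values, log2 ratios of sample to reference were computed here with limma 3.58.1 in R 4.3.3 (normexp with offset 50, loess within arrays, control and outlier spots left out). Probes were named through RefSeq accessions, which named 15294 of 41006. The brightest probe stood for a gene. An entry without a name was kept under its deposited label and counted as a gene. Genes well above background on both arrays of at least 1 kind were tested, 36011 in all, by lmFit and eBayes on all 6 arrays, two-sided, leaving 3 residual degrees of freedom. The Benjamini-Hochberg adjustment ran over all genes of a comparison. A fit drops an array on which a probe was marked as an outlier. Bounds for saturated probes used the sample channel after loess and Aquantile, and are open to dye bias since dyes were not swapped. The fit was tested on simulated data.

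Members were found by the accession rule, and all of them may be named. Every array value is given for the best-known chaperones and, per class and comparison, for the 3 called genes with the largest differences in each direction without overlap. Members, classes and lists were chosen with earlier results of these data known. Precision is limited by the number of arrays. The header's day of Feature Extraction coincides with the replicate number, and scan days were not used.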

Additional observations from a re-analysis of the deposited data

How the results depend on the processing

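Counts of called genes were recomputed under 15 alternatives. For MAPC minus ESC all 12 ER calls held in all of them, for MAPC minus NS 10 of 12 did (Hspa13 and Pdia3 did not), and for ESC minus NS 6 of 10 (Canx, Dnajb9, Pdia4 and Pdia5 did not). Of the cytosolic calls 16 of 21, 20 of 25 and 19 of 25 held. With the sample channel alone 6 ER genes were called for ESC minus NS, against 10, and the cause was not tested. Leaving out 1 array at a time gave 12 to 13, 10 to 12 and 8 to 11 ER calls and 21 to 23, 24 to 26 and 22 to 27 cytosolic calls, in the order of comparisons just used. A lone array left in a kind was then assumed to vary like the other kinds. The replicate numbers, of which there are 2, share a day of Feature Extraction, and same-numbered arrays deviated together with correlations of 0.105 to 0.208; with the replicate block 12, 12 and 10 ER genes and 22, 26 and 27 cytosolic genes were called.

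Of the gene values past the threshold in at least 1 of the fits compared, 11 turned direction, and the causes were not tested. A further 108 values changed sign while passing in neither, Pdia3 for MAPC minus ESC among them. Of 147 called gene values 42 moved by over 1.5 times without background subtraction, 26 with the sample channel alone and 15 with median centring. The values that turned direction with median centring were Cct4 (0.29), Tcp1 (0.26), Hspa8 (0.32) and Dnajc28 (0.013) for MAPC minus NS and Canx (0.032) for ESC minus NS. With the mean of all probes those that turned direction were Hspa8 (0.28 for MAPC minus NS, 0.45 for ESC minus NS), Canx (0.10) and Hsf1 (-0.019) for ESC minus NS. Dnajc17 turned to 0.017 for MAPC minus ESC with the sample channel alone, and Dnajb8 gave -0.28 to 0.28 for ESC minus NS when 1 array was left out, turning without ESC replicate 1 (0.275). A block for scan day was not run, as the headers used here give no scan day. Saturation limits Hsp90aa1 and Hspa8, and in the reference channel also Hsp90b1, Hspe1 and Cct4; weak signal limits the 19 members at or below the highest negative control on some array.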
